A study of Mus musculus with 12 samples.

Results

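The genes described here encode the proteins of the mitochondrial ribosome. They were taken as the protein-coding genes whose symbol begins with Mrpl, for the large subunit, or Mrps, for the small subunit, followed by a number, and 5 pseudogenes with -ps in the symbol were left out. The rule found 78 genes, 49 Mrpl and 29 Mrps, among the 50686 genes of the count tables. It uses names and no measured value.

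RNA of sorted splenic B cells from 12 mice was sequenced, 1 library per mouse. The 6 pBIC mice carried p53F/F, Blimp1F/F, IKK2castopF/stopF and Cg1Cre/+ alleles, the 3 BIC mice carried Blimp1F/F, IKK2castopF/stopF and Cg1Cre/+ without the p53 allele, and the 3 YC controls carried YFPstopF/+ and Cg1Cre/+. The labels call pBIC and BIC murine models of ABC-DLBCL, an aggressive B-cell lymphoma, and YC normal controls. Sorted cells were B220-positive and reporter-positive, GFP in pBIC and BIC and YFP in YC. Cg1Cre, which every mouse carried, acts in B cells that transcribe the unrearranged IgG1 constant region, mostly those of germinal centres; it removes the floxed p53 (Trp53) and Blimp1 (Prdm1) genes and switches on IKK2ca, an active form of the NF-kB kinase IKK2, or the YFP reporter. By these labels pBIC differs from BIC in the p53 allele, and both differ from YC in several alleles and in the reporter. The labels give neither sex nor age.

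Libraries held 33127283 to 47067627 counted reads. Values are given as CPM, counts per 1000000 reads counted in genes that passed a filter on low counts. For this the library size was multiplied by a scaling factor (TMM), from 0.9625 in BIC 2 to 1.064 in pBIC 4. Ikbkb, which encodes IKK2, was at 453 to 510.2 CPM in pBIC, 381 to 538 CPM in BIC and 217 to 249.5 CPM in YC. Trp53 stood at 16.2 to 32.0 CPM in pBIC, 72.1 to 209 CPM in BIC and 137 to 147 CPM in YC. The B-cell receptor gene Cd79a was detected in every library, at 161 to 1175 CPM in pBIC, 1270.0 to 1456 CPM in BIC and 931 to 1180.0 CPM in YC, and so was Ms4a1, which encodes CD20, at 287 to 1544 CPM in pBIC, 2040.0 to 2319 CPM in BIC and 1029 to 1648 CPM in YC. Ptprc, which encodes B220, fell in pBIC against both other groups, by 1.75 ± 0.18 log2 units against YC (SE, edgeR adjusted p = 0.00019). Summed neutrophil markers ranged over 3.997 to 72.9 CPM in pBIC, 51.4 to 1362 CPM in BIC and 1.84 to 255 CPM in YC. Xist was at 2.58 to 2633 CPM in pBIC, 1680 to 1828 CPM in BIC and 0.0845 to 5.13 CPM in YC, so the sex of the mouse and the group cannot be told apart between BIC and YC. Bulk libraries cannot separate fewer cells of a type from less RNA per cell. Summed T-cell markers were at 7.09 to 31.1 CPM in pBIC, 38.01 to 117 CPM in BIC and 8.09 to 17.7 CPM in YC, and macrophage markers at 14.3 to 333 CPM in pBIC, 169.9 to 262 CPM in BIC and 46.5 to 85.9 CPM in YC. Plasma-cell markers were at 443 to 1345 CPM in pBIC, 539 to 1354 CPM in BIC and 1713 to 2034 CPM in YC. The parts that marker levels, sex or the number of B cells play in the results were not tested.

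The mitochondrial ribosome translates the few messages encoded by mitochondrial DNA, all of them for subunits of the oxidative phosphorylation complexes. Its rRNAs come from the mitochondrial genome, while all of its proteins are encoded in the nucleus, made in the cytosol and imported. Some of these proteins descend from bacterial ribosomal proteins and others were added during the evolution of mitochondria, and the symbols do not always match the position in the solved structures. Mrps30 and Mrps18a sit in the large subunit, and Mrps36 is a subunit of the 2-oxoglutarate dehydrogenase complex rather than a ribosomal protein.

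Of the 78 genes, 77 passed the filter on low counts. Mrpl53 was listed at 0 in all 12 libraries. In the deposited annotation 88.0% of its exon bases lie inside exons of Ccdc142os and Gm42688, and reads assigned to more than 1 gene were not counted. Per kilobase of exon, the highest mean levels over the 12 libraries were those of Mrps16 with 86.7 RPKM, Mrpl36 with 46.5 RPKM, Mrps7 with 46.2 RPKM and Mrpl52 with 43.9 RPKM. Mrps16, Mrps7 and Mrpl36 descend from bacterial ribosomal proteins, and Mrpl52 was added in mitochondria. The lowest were Mrps35 with 3.93 RPKM, Mrps25 with 3.01 RPKM, Mrps34 with 2.76 RPKM and Mrpl33 with 2.45 RPKM. Overlap with other genes covers 77.8% of the exon bases of Mrps34 and 69.8% of those of Mrps25, so the levels of both are uncertain.

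Mitochondrial ribosomal protein messages were higher in pBIC cells than in either other group, in both subunits. The 49 Mrpl genes summed to 2171, 2523, 2840, 2081, 2951 and 2089 CPM in pBIC 1 to 6, against 1446, 1590.4 and 1521 CPM in BIC and 1248, 1334 and 1522 CPM in YC. The 29 Mrps genes summed to 1072, 1271, 1279, 1018, 1581 and 1025 CPM in pBIC 1 to 6, against 675, 768 and 735 CPM in BIC and 617, 670.3 and 756 CPM in YC. Every pBIC library lay above every BIC and YC library in both sums, whereas the BIC and YC libraries overlapped. Without scaling, the members took 0.3% to 0.453% of all counted reads in pBIC, 0.219% to 0.227% in BIC and 0.19% to 0.224% in YC. By this share pBIC 4, with 0.329%, lay above pBIC 1, with 0.315%, and pBIC 6, with 0.3%, whereas its scaled sums were the lowest of pBIC.

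**Figure D1:**
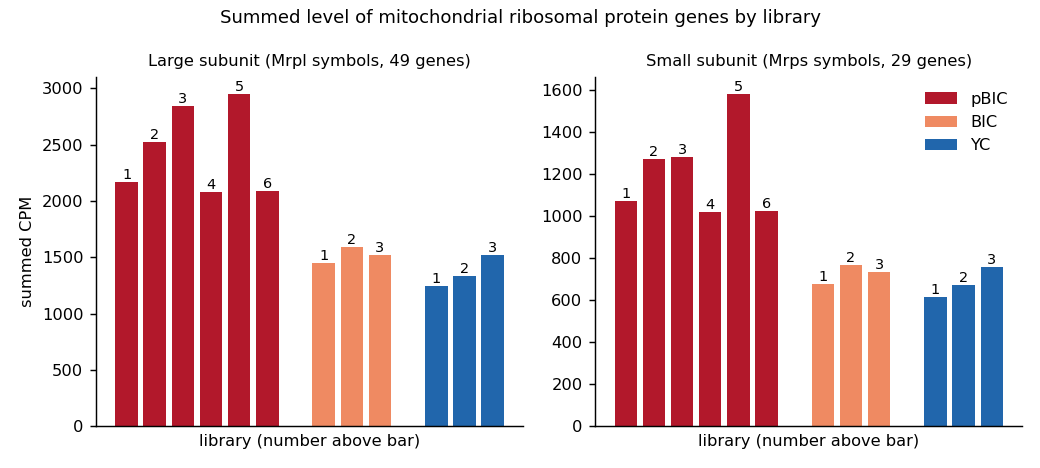
Summed CPM of the Mrpl genes (left) and the Mrps genes (right), 1 bar per library with its number above the bar, for pBIC, BIC and YC. The 6 pBIC libraries stand above all others, with pBIC 5 the highest (2951 and 1581 CPM), and the BIC and YC libraries overlap.

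In pBIC against YC, 46 of the 77 tested members rose and none fell (edgeR quasi-likelihood test, Benjamini-Hochberg adjusted p under 0.05 over all 17754 genes). Among all genes tested 11.8% rose and 10.2% fell, and 59.7% of the members rose. All 77 fitted fold changes were positive, as were 54.7% of those of all genes, with a median of 0.76 log2 units (1.69-fold), beside 0.10 over all genes tested. For 43 members every pBIC library lay above every YC library, which held for 12.9% of all genes. An unadjusted p under 0.05 was found for 64 members and 36.4% of all genes. Of the members with a bacterial counterpart 32 of 47 rose, with a median log2 fold change of 0.83, and of the mitochondria-specific ones 14 of 29, with a median of 0.70.

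The large-subunit members with the smallest p-values were Mrpl2, Mrpl44, Mrpl35, Mrpl42, Mrpl20, Mrpl19, Mrpl45 and Mrpl12. Mrpl2, whose bacterial counterpart lies beside the peptidyl transferase centre, ranged from 51.6 to 75.6 CPM in pBIC with a median of 60.7, against 23.2, 20.5 and 25.8 CPM in YC. No pBIC library came near the YC values, and the log2 fold change was 1.42 ± 0.19 (SE, edgeR adjusted p = 0.00056). Mrpl44, which has the fold of an RNase III enzyme, ranged from 46.4 to 89.8 CPM in pBIC with a median of 70.1, against 16.7, 21.02 and 24.0 CPM in YC. It rose by 1.71 ± 0.25 log2 units (SE, edgeR adjusted p = 0.00093), and here too the groups did not overlap. Mrpl12, a protein of the stalk that recruits translation factors and in human cells also a partner of the mitochondrial RNA polymerase, ranged from 54.1 to 147.5 CPM in pBIC with a median of 75.5, against 26.8, 24.7 and 30.2 CPM in YC. Its rise of 1.64 ± 0.31 log2 units (SE, edgeR adjusted p = 0.0036) was carried by all 6 pBIC libraries, with pBIC 5 the highest. Mrpl20, whose counterpart binds rRNA early in the assembly of the bacterial large subunit, ranged from 56.2 to 110 CPM in pBIC with a median of 69.5, against 22.7, 23.4 and 32.0 CPM in YC, a log2 fold change of 1.56 ± 0.24. Mrpl45, which faces the inner membrane at the exit of the nascent-chain tunnel, ranged from 62.6 to 161 CPM in pBIC with a median of 98.2, against 34.7, 38.2 and 43.4 CPM in YC, a log2 fold change of 1.42 ± 0.26. Mrpl35, Mrpl42 and Mrpl19 rose by 1.44 ± 0.21, 1.23 ± 0.18 and 1.09 ± 0.18 log2 units. None of these 8 genes had a pBIC library at or below a YC library.

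Among the small-subunit members the smallest p-values were those of Mrps35, Mrps15, Mrps33, Mrps10, Mrps27 and Mrps5. Mrps15, whose bacterial counterpart is among the first proteins to bind the small-subunit rRNA, was at 51.8 CPM in pBIC 4 and 62.4 to 64.8 CPM in the other pBIC libraries, with a median of 64.4, against 28.4, 32.2 and 35.6 CPM in YC. That gave a log2 fold change of 0.95 ± 0.15 (SE, edgeR adjusted p = 0.0014). Mrps27, a pentatricopeptide repeat protein, ranged from 26.1 to 51.5 CPM in pBIC with a median of 38.3, against 15.8, 15.6 and 20.3 CPM in YC, and rose by 1.13 ± 0.22 log2 units. Mrps5, counterpart of a bacterial protein that affects the accuracy of translation, ranged from 58.0 to 129 CPM in pBIC with a median of 72.4, against 31.5, 31.7 and 34.95 CPM in YC, and rose by 1.39 ± 0.28 log2 units. The mitochondria-specific Mrps35 and Mrps33 rose by 1.07 ± 0.16 and 1.14 ± 0.20 log2 units, and Mrps10, whose counterpart lies in the head of the bacterial small subunit, by 0.99 ± 0.19. In each of the 6 the pBIC and YC libraries did not overlap. Exon bases shared with other genes make up 22.6% of Mrps27 and 36.0% of Mrpl19.

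The 4 uncalled members with the largest adjusted p were Mrpl43, Mrpl54, Mrpl58 and Mrpl41, all mitochondria-specific large-subunit proteins. Mrpl43 ranged from 35.3 to 59.9 CPM in pBIC with a median of 46.3, against 40.8, 47.0 and 52.5 CPM in YC. The groups overlapped fully, the log2 fold change was 0.00 ± 0.20 (SE) and the edgeR adjusted p was 0.993. Mrpl58, a peptidyl-tRNA hydrolase that releases stalled chains and was built into the ribosome, had a log2 fold change of 0.25 ± 0.23, Mrpl54 one of 0.13 ± 0.18 and Mrpl41 one of 0.23 ± 0.20. Without YC 1 23 members and 1014 of 18427 genes rose, without YC 2 24 members and 871 of 18545 genes, and without pBIC 6 55 members and 2400 of 17399 genes, against 2103 of 17754 genes in the fit of all libraries. With Xist as a covariate 28 members and 1739 of 17754 genes rose, and 20 of the 46 were called in all 12 fits that left out 1 library.

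**Figure D2:**
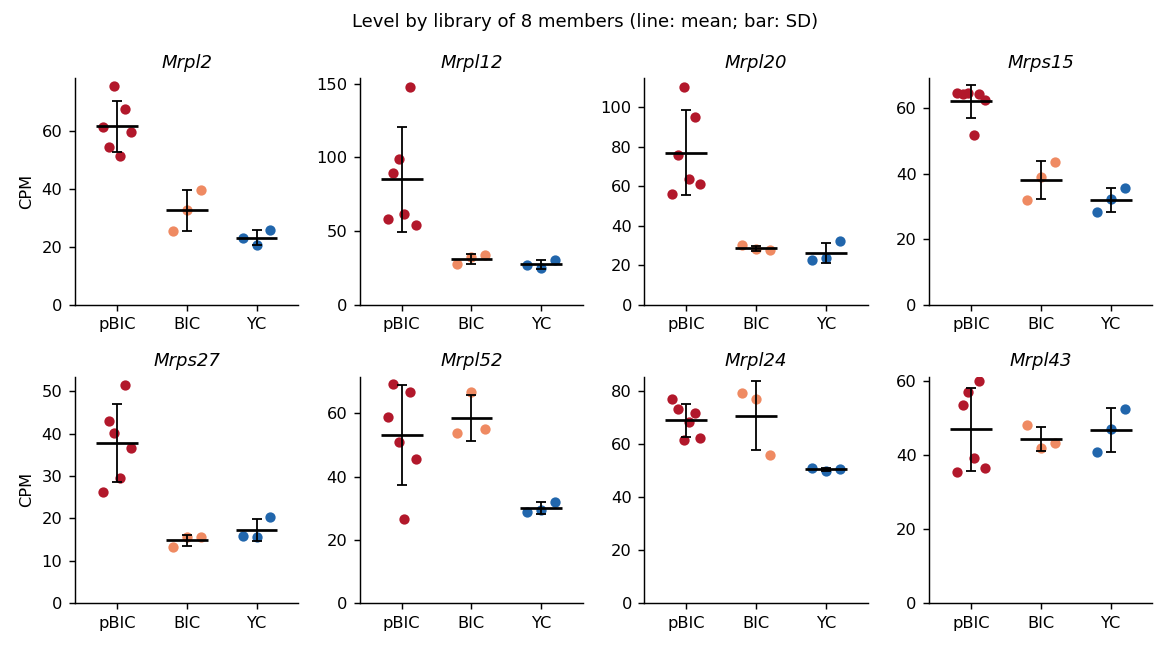
CPM of 8 members in each library of pBIC, BIC and YC, with the mean and SD of each group. The pBIC points of Mrpl2, Mrpl12, Mrpl20, Mrps15 and Mrps27 lie above all BIC and YC points, those of Mrpl52 and Mrpl24 spread over the BIC points, and the 3 groups of Mrpl43 overlap.

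In pBIC against BIC, which differ by the labels in the p53 allele and share the same 6 pBIC libraries with the comparison above, 38 of 77 members rose and none fell (edgeR, adjusted p under 0.05). Of all genes tested 10.9% rose and 8.78% fell. The median log2 fold change of the members was 0.65 (1.57-fold), beside 0.09 over all genes. Positive fold changes were found for 74 members and 54.2% of all genes, and for 41 every pBIC library lay above every BIC library, which held for 11.7% of all genes; no member lay wholly below BIC, as 9.9% of all genes did. Of members with a bacterial counterpart 24 of 47 rose and of mitochondria-specific ones 14 of 29.

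The smallest p-values among Mrpl genes belonged to Mrpl19, Mrpl35, Mrpl20, Mrpl42, Mrpl50, Mrpl2, Mrpl9 and Mrpl12. Mrpl19, whose bacterial counterpart lies at the interface of the subunits, ranged from 54.4 to 78.3 CPM in pBIC with a median of 67.4, against 29.2, 34.3 and 24.1 CPM in BIC. All pBIC libraries lay above all BIC libraries, with a log2 fold change of 1.20 ± 0.18 (SE, edgeR adjusted p = 0.0017). Mrpl35 ranged from 36.0 to 65.0 CPM in pBIC with a median of 52.8, against 21.2, 21.8 and 18.9 CPM in BIC, a log2 fold change of 1.31 ± 0.21. Mrpl20 was at 30.0, 28.3 and 27.4 CPM in BIC and Mrpl12 at 27.3, 32.3 and 33.4 CPM in BIC, so that the pBIC values given above exceeded them by 1.43 ± 0.24 and 1.46 ± 0.31 log2 units. The mitochondria-specific Mrpl50 rose by 1.21 ± 0.24 log2 units and Mrpl42 by 0.97 ± 0.18. Mrpl9, counterpart of a long bridging protein of the bacterial large subunit, rose by 1.05 ± 0.21 log2 units and Mrpl2 by 0.92 ± 0.18.

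Among Mrps genes they belonged to Mrps27, Mrps22, Mrps18a, Mrps11, Mrps15 and Mrps9. Mrps27 was at 13.3, 15.5 and 15.7 CPM in BIC, below all pBIC libraries, with a log2 fold change of 1.35 ± 0.23 (SE, edgeR adjusted p = 0.0028). Mrps22, a mitochondria-specific protein, ranged from 14.5 to 29.9 CPM in pBIC with a median of 23.3, against 8.89, 11.1 and 7.39 CPM in BIC, and rose by 1.30 ± 0.25 log2 units. In YC it stood at 12.2, 13.7 and 15.5 CPM, and pBIC against YC was not called for it (0.70 ± 0.24 log2 units, edgeR adjusted p = 0.0555). Mrps18a, Mrps11, Mrps15 and Mrps9 rose by 0.95 ± 0.19, 0.92 ± 0.19, 0.70 ± 0.15 and 0.88 ± 0.20 log2 units. Without BIC 1 the calls of Mrps15 (edgeR adjusted p = 0.0543) and Mrps9 (adjusted p = 0.0515) were lost.

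Against BIC, the uncalled members with the largest adjusted p were Mrpl24, Mrpl43, Mrpl52 and Mrpl14. Mrpl24 ranged from 61.5 to 77.1 CPM in pBIC with a median of 70.1, against 79.4, 77.2 and 55.9 CPM in BIC, while YC was at 50.9, 49.8 and 50.8 CPM. Its pBIC and BIC libraries overlapped (-0.04 ± 0.14 log2 units, SE) and all lay above YC. Exon bases shared with the gene Rrnad1 make up 26.3% of Mrpl24. Mrpl52 ranged from 26.6 to 69.5 CPM in pBIC with a median of 54.8, against 53.8, 66.8 and 55.0 CPM in BIC, and YC was at 28.8, 29.3 and 32.1 CPM. pBIC 4 was the only pBIC library within the range of YC or below it for Mrpl52. Over YC, Mrpl52 and Mrpl24 were called in 2 and 4 of the 12 fits that left out 1 library, with edgeR adjusted p up to 0.132 and 0.142. Mrpl14 ranged from 11.4 to 21.3 CPM in pBIC with a median of 15.2, against 18.6, 19.2 and 16.4 CPM in BIC, and YC was at 10.8, 9.37 and 12.8 CPM. Over BIC, 12 members and 735 of 18505 genes rose without BIC 1, 16 members and 853 of 18730 genes without BIC 2, and 20 members and 1186 of 18742 genes without BIC 3, against 1937 of 17754 genes in the fit of all libraries. Without the filter on low counts 19 members and 1232 of 33434 genes rose. In the 12 fits that left out 1 library, 12 of the 38 were called every time.

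In BIC against YC no member rose or fell (edgeR quasi-likelihood test, adjusted p under 0.05), while 8.88% of all genes were called, 3.9% higher and 4.97% lower. At an unadjusted p under 0.05 there were 10 members, 9 of them higher in BIC, beside 25.7% of all genes. Of all genes 50.4% had a positive fold change. DESeq2 called 1 member, Mrpl52, at an adjusted p of 0.0398. The median log2 fold change of the members was 0.07, beside 0.01 over all genes, and single values ran from -0.60 for Mrps22 to 0.96 for Mrpl52. Every BIC library lay above every YC library for 15 members (21.9% of all genes) and below for 5 (23.2% of all genes). Mrpl52 had the smallest adjusted p, with 0.96 ± 0.29 log2 units (SE, edgeR adjusted p = 0.0607). The largest adjusted p-values were those of Mrpl33, Mrpl40, Mrps18c and Mrps24, for which the 2 groups overlapped. A fit of the BIC and YC libraries alone called 9 members, all higher in BIC, when 2327 of 15923 genes rose. With Xist as a covariate 2 members rose and the median was -0.14. Xist was high in every BIC library and low in every YC library, so this fit cannot separate Xist from the group here.

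**Figure D3:**
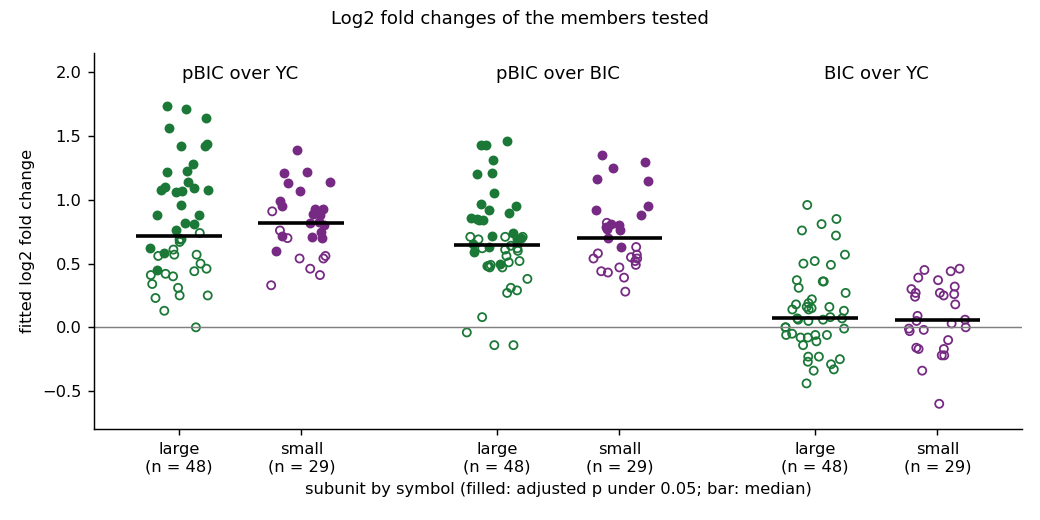
Fitted log2 fold change of each tested member for pBIC over YC, pBIC over BIC and BIC over YC, split into 48 large-subunit and 29 small-subunit genes, with filled points for an adjusted p under 0.05 and a bar at the median. Medians are 0.72 and 0.82 over YC and 0.64 and 0.70 over BIC for pBIC, and 0.07 and 0.06 for BIC over YC, where no point is filled.

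Both subunits held members that rose. Of all genes tested 11.8% rose in pBIC over YC, with a median of 0.10 log2 units, and 10.9% over BIC, with a median of 0.09. In pBIC against YC 26 of 48 Mrpl genes rose, with a median of 0.72 log2 units, and 20 of 29 Mrps genes, with a median of 0.82, a difference of medians of -0.10. Against BIC 23 of 48 Mrpl genes rose with a median of 0.64 and 15 of 29 Mrps genes with a median of 0.70, a difference of -0.06. With Mrps30 and Mrps18a placed in the large subunit and Mrps36 left out, these differences were -0.14 and 0.00. The ratio of the summed CPM of Mrpl over Mrps genes was 1.87 to 2.22 in pBIC, 2.07 to 2.14 in BIC and 1.99 to 2.02 in YC. It was lowest in pBIC 5 and highest in pBIC 3, where Mrpl13 alone gave 210.3 CPM. Since members of a subunit are not replicates, the difference was not tested.

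The proteins whose symbol goes against their place, and the paralogues, had the following levels. Mrps30 ranged from 24.9 to 46.4 CPM in pBIC with a median of 38.1, against 20.6, 25.6 and 19.7 CPM in BIC and 19.0, 20.97 and 23.3 CPM in YC, and rose by 0.76 ± 0.22 log2 units over BIC and 0.82 ± 0.22 over YC (SE, edgeR adjusted p = 0.0298 and 0.0189). The BIC range touched pBIC and the YC range did not. Mrps36, the 2-oxoglutarate dehydrogenase subunit, was at 11.97 to 14.4 CPM in pBIC, against 7.76, 11.4 and 7.75 CPM in BIC and 5.85, 9.59 and 11.9 CPM in YC, and was not called in any comparison. Mrps18a, Mrps18b and Mrps18c are paralogues, of which Mrps18a sits in the large subunit. Mrps18a ranged from 35.1 to 59.5 CPM in pBIC with a median of 47.0, against 22.9, 23.5 and 27.6 CPM in BIC and 27.3, 33.3 and 33.4 CPM in YC, and it was called over both. Mrps18b ranged from 23.9 to 34.5 CPM in pBIC with a median of 31.2, against 14.6, 18.8 and 24.8 CPM in BIC and 18.3, 16.3 and 12.8 CPM in YC; it rose over YC by 0.93 ± 0.21 log2 units, and over BIC the adjusted p was 0.0537. Mrps18c had the smallest spread of all members in pBIC, at 14.5 to 16.8 CPM, against 11.2, 10.4 and 9.98 CPM in BIC and 6.67, 11.8 and 13.3 CPM in YC, and was not called, although no pBIC library overlapped either group. The calls of Mrps30 were lost over YC when YC 1 or YC 2 was left out (highest edgeR adjusted p 0.0876) and over BIC without any of the BIC libraries or pBIC 2 (adjusted p up to 0.122). The call of Mrps18a over YC was lost in 6 of 12 such fits (adjusted p up to 0.153) and that of Mrps18b without YC 3 (0.0542). Exon bases shared with the gene Gm16279 make up 30.5% of Mrps18b, and 37.8% of Mrps30 is shared with B430218F22Rik. Of Mrps18c, 23.2% is shared with Gm43511.

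The median SD of log2 CPM was 0.347 over the members and 0.561 over all genes tested in pBIC, 0.146 and 0.321 in BIC, and 0.197 and 0.259 in YC. pBIC 5 was the highest of the 6 for 34 members and above all YC libraries for all 77. In contrast, pBIC 4 was the lowest for 32 members and pBIC 6 for 24, as were 15.6% and 16.9% of all genes. Within YC, YC 3 was the highest for 64 members and YC 1 the lowest for 49. Shares of all genes were not counted for pBIC 5 or the YC libraries. pBIC 5 also had the lowest Cd79a of pBIC, 161 CPM, and the highest summed erythroid markers of pBIC, 396 CPM. Erythroid markers were higher still in YC 1, at 454 CPM, against 19.3 and 55.1 CPM in YC 2 and YC 3. Neutrophil markers were at 255 CPM in YC 1, against 6.80 and 1.84 CPM in YC 2 and YC 3. Without pBIC 5, 39 members and 1881 of 17461 genes rose over YC, and 33 members and 1736 genes over BIC.

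Single libraries stood apart for a few members. Dixon's test flagged 4 of 80 quantities in pBIC, about as many as chance gives at 1 in 20. Mrpl13, whose bacterial counterpart is an early-binding protein of the large subunit, was at 66.2, 76.8, 210.3, 51.3, 79.2 and 79.1 CPM in pBIC 1 to 6, against 26.7, 31.9 and 46.0 CPM in BIC and 24.3, 25.7 and 34.1 CPM in YC. It had the largest fold change over YC of all members, 1.74 ± 0.42 log2 units (SE, edgeR adjusted p = 0.0121), with all pBIC libraries above both other groups; the adjusted p was 0.063 without YC 2 and 0.06 without YC 1, and over BIC the call (1.43 ± 0.41) was lost without any 1 of the BIC libraries, with an adjusted p up to 0.138. In pBIC 3 its chromosomal neighbours were high as well: the 35 tested genes within 5 Mb on chromosome 15 had a median of 1.39 log2 units over the median of the other pBIC libraries, and 21 of them were highest in pBIC 3, as were 15.8% of all genes. The median over the 596 tested genes of chromosome 15 was 0.15. Mrpl37 in pBIC 6 lay 1.30 log2 units below the other pBIC libraries, and the 27 tested genes within 1 Mb had a median of -0.75, while the 73 genes within 5 Mb had a median of 0.08. Mrps15 lay 0.31 log2 units below the other libraries in pBIC 4, where the 31 genes within 1 Mb had a median of 0.09 and the 131 within 5 Mb one of -0.03. Mrps17 lay 0.46 log2 units below in pBIC 6, where the 35 genes within 1 Mb had a median of -0.18, the 68 within 5 Mb one of -0.39 and the 1183 of chromosome 5 one of -0.27.

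**Figure D4:**
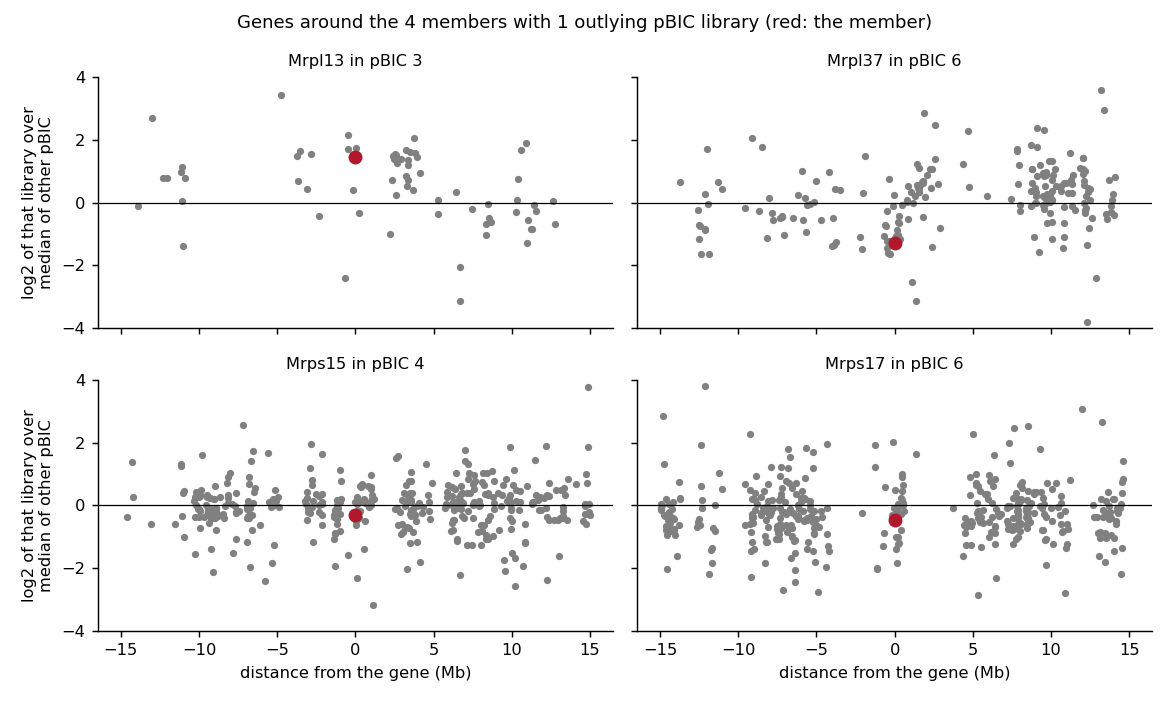
Log2 level of each tested gene near Mrpl13, Mrpl37, Mrps15 and Mrps17, in the pBIC library where that member stands apart, relative to the median of the other pBIC libraries, against distance from the member in Mb. Genes within 5 Mb of Mrpl13 have a median of 1.39, and those within 1 Mb of Mrpl37 a median of -0.75.

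Other genes of mitochondrial translation were described from lists of known function. Of all genes, 11.8% rose in pBIC over YC, and 10.9% rose and 8.78% fell over BIC. In BIC over YC 3.9% rose. In log2 units over YC and BIC, pBIC medians were 0.60 and 0.70 for mitoribosomal proteins with other symbols. They were 0.52 and 0.33 for translation factors and 0.37 and 0.28 for assembly factors. For synthetases they were 0.53 and 0.36, for transcription and genome upkeep 0.50 and 0.40, and for all genes 0.10 and 0.09. Of 5 tested mitoribosomal proteins with other symbols 3 rose in pBIC over YC and 3 over BIC. They were Ptcd3, a pentatricopeptide repeat protein of the small subunit (1.08 ± 0.14 and 1.26 ± 0.14 log2 units), Chchd1 (1.45 ± 0.33 and 1.01 ± 0.32) and Aurkaip1 (0.60 ± 0.15 and 0.48 ± 0.15). Of 16 translation factors 4 rose over YC and 4 over BIC, among them Lrpprc, which stabilises mitochondrial messages (1.27 ± 0.14 and 1.29 ± 0.14), and the elongation factors Tsfm (0.79 ± 0.16 and 0.69 ± 0.16) and Tufm (0.79 ± 0.19 and 0.84 ± 0.19). Of 28 assembly factors 6 rose over YC and none fell, and 5 rose and 2 fell over BIC. The GTPases Mtg1 and Noa1 rose by 1.82 ± 0.21 and 1.62 ± 0.19 log2 units over YC and by 0.72 ± 0.20 and 1.05 ± 0.18 over BIC, the ribosome-binding factor Rbfa by 1.09 ± 0.22 and 1.03 ± 0.22, and the 2 that fell over BIC were Mterf3 and Mtg2, each with a log2 fold change of -0.70. Mtg1 also rose in BIC over YC, by 1.10 ± 0.23 log2 units (SE, edgeR adjusted p = 0.0129), as the only gene of its list. Of 20 mitochondrial aminoacyl-tRNA synthetases and related amidotransferase genes 7 rose over YC and 4 over BIC, with the valyl enzyme Vars2 at 1.02 ± 0.19 and 0.66 ± 0.18 log2 units and the arginyl enzyme Rars2 at 0.83 ± 0.17 and 0.59 ± 0.16. Of 15 genes of mitochondrial transcription and genome upkeep 6 rose over YC and 4 over BIC, including the helicase gene Supv3l1 (1.34 ± 0.22 and 1.32 ± 0.22) and Ssbp1, the single-strand binding protein (0.92 ± 0.14 and 0.77 ± 0.14). Tefm, the mitochondrial transcription elongation factor gene, rose over YC in both pBIC (1.17 ± 0.21) and BIC (0.84 ± 0.24, edgeR adjusted p = 0.0454) and was not called in pBIC over BIC (0.32 ± 0.21).

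None of the 13 mitochondrially encoded mRNAs was called in any comparison (edgeR), and none had an unadjusted p under 0.05. Their median log2 fold change was 0.45 in pBIC over YC and 0.43 in BIC over YC, with 12 of 13 positive in each. In pBIC over BIC it was -0.01, with 6 positive. Medians over all genes were 0.10, 0.01 and 0.09, with 54.7%, 50.4% and 54.2% positive. Their summed level was 38665, 22598, 26702, 25154, 17512 and 33886 CPM in pBIC 1 to 6, against 22484, 30780.4 and 24208 CPM in BIC and 18212, 19505 and 22999 CPM in YC. pBIC 5, which had the highest summed Mrpl and Mrps levels, had the lowest of these sums, and pBIC 1 had the highest. The rRNAs of the mitochondrial ribosome were not called either. mt-Rnr1 ranged from 75.3 to 265 CPM in pBIC with a median of 178, against 232, 229.8 and 180.4 CPM in BIC and 192, 203 and 198 CPM in YC. mt-Rnr2 ranged from 176 to 977 CPM in pBIC with a median of 624, against 583, 826 and 562 CPM in BIC and 757, 648 and 888 CPM in YC. Libraries were made from poly(A) RNA and reads that map to several places were not counted, so these levels are not comparable between genes, and 6 of the 13 mRNAs averaged under 10 CPM in every group.

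Genes for other mitochondrial proteins rose as well, where 11.8% of all genes rose in pBIC over YC and 10.9% over BIC. Of 16 widely used markers of mitochondrial content 12 rose in pBIC over YC, with a median of 1.10 log2 units, 13 rose over BIC, with a median of 1.01, and none was called in BIC over YC. Hspa9, the matrix chaperone that pulls in imported proteins, ranged from 439.5 to 840.1 CPM in pBIC with a median of 638, against 187, 257 and 266 CPM in BIC and 229.5, 181 and 195 CPM in YC. It rose by 1.69 ± 0.24 log2 units over YC and 1.46 ± 0.23 over BIC, with no overlap. The prohibitin gene Phb rose by 1.86 ± 0.27 and 1.21 ± 0.26 log2 units. Citrate synthase (Cs) was not called in either comparison (0.20 ± 0.21 and 0.48 ± 0.21). Of 81 cytosolic ribosomal protein genes 39 rose over YC, with a median of 0.63 log2 units, against 7 that rose and 1 that fell over BIC, with a median of 0.28. None was called in BIC over YC, where their median was 0.37.

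**Figure D5:**
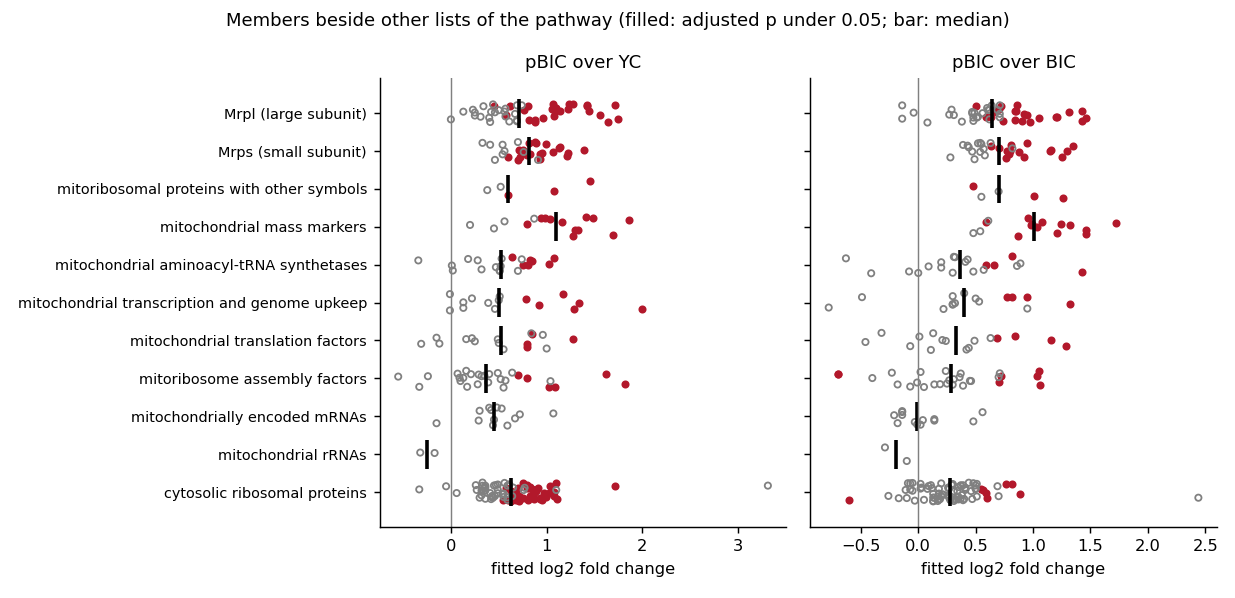
Fitted log2 fold change of each gene for pBIC over YC (left) and pBIC over BIC (right), by list, with filled points for an adjusted p under 0.05 and a bar at the median. The median of the mitochondrial content genes is 1.10 over YC and 1.01 over BIC, mitochondrially encoded RNAs have no filled point, and cytosolic ribosomal protein genes shift over YC more than over BIC.

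Regulators linked to mitochondrial biogenesis were mostly not called. In pBIC over YC 8 of 11 had negative fold changes, with a median of -0.26 log2 units and a lowest value of -3.40, and none fell by call. In BIC over YC 9 were negative, with a median of -0.33 and a lowest value of -3.23, and none was called. In pBIC over BIC 8 were positive, with a median of 0.24, and by call 2 rose and 1 fell. Of all genes, 54.7% were positive in pBIC over YC, 50.4% in BIC over YC and 54.2% in pBIC over BIC. By call 11.8% of all genes rose and 10.2% fell in pBIC over YC, and 10.9% rose and 8.78% fell over BIC. In BIC over YC 8.88% of all genes were called. Of 11 tested, Ppargc1b, a transcriptional coactivator, rose by 0.90 ± 0.30 log2 units in pBIC over YC (SE, edgeR adjusted p = 0.0459) and by 1.0 ± 0.30 over BIC. The call over YC was lost with DESeq2 size factors in the edgeR fit, where 0 of the 11 rose and 1 fell. Myc, a transcription factor that many ribosome-related genes respond to, was at 931, 381, 1128, 1452, 615 and 885 CPM in pBIC 1 to 6, against 174, 310.3 and 462 CPM in BIC and 561, 317 and 312 CPM in YC. It rose over BIC by 1.51 ± 0.43 log2 units (SE, edgeR adjusted p = 0.0299) and was not called over YC (1.18 ± 0.42, adjusted p = 0.0646). The summed members were at 3243, 3793, 4119, 3099, 4533 and 3114 CPM in pBIC 1 to 6. The part that Myc plays in the level of the members was not tested. The nuclear receptor gene Esrra fell in pBIC over BIC, with a log2 fold change of -0.69 ± 0.18.

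Promoters of the members were searched for short motifs. RefSeq promoter windows on GRCm38.p6, from 250 bases before to 50 after the annotated start, were found for 69 members, with 75 windows in all. The ETS motif CCGGAAG, on either strand, lay in 34.7% of them, against 16.6% of the windows of tested protein-coding genes and 8.91% of all 32544 windows. An exact 10-base consensus of NRF1, a regulator of nuclear genes for mitochondria, lay in 4%, against 1.96% and 0.974%, a 10-base YY1 consensus in 6.67%, against 1.87% and 0.854%, and the E-box CACGTG, which Myc and other factors can bind, in 9.33%, against 9.55% and 7.17%. The 7 member windows with an E-box belong to 5 of the 69 genes, since 3 overlapping windows of Mrpl2 hold the same site. The letters TATAAA lay in 6.67%, against 7.4% and 13.6%. Windows were set beside the measured change without a test. The 25 tested members with the ETS motif had a median log2 fold change of 0.69 in pBIC over YC, and the 43 without it 0.81. Of these, 14 with the motif and 26 without it rose. The 5 with an E-box (Mrpl2, Mrpl20, Mrpl36, Mrpl37 and Mrps18c) had a median of 1.28, and the 63 without it 0.74. By calls, 3 of the 5 and 37 of the 63 rose, which are similar shares.

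The bases before the start are shown for 6 members whose motif lies outside annotated exons: 2 with an E-box that rose over YC and 4 with an ETS motif, of which Mrpl34 and Mrpl52 rose over YC (edgeR adjusted p = 0.0286 and 0.0399, each lost without any 1 of the YC libraries), Mrps22 rose over BIC and Mrpl58 was called in neither. Each run is 120 bases ending at the base before the start, 5' to 3' on the strand of the gene, with the motif on either strand in capitals.
Mrpl20, chr4:155802758-155802877, plus strand: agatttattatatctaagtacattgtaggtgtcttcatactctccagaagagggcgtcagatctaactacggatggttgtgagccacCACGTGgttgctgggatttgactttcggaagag
Mrpl36, chr13:73330889-73331008, plus strand: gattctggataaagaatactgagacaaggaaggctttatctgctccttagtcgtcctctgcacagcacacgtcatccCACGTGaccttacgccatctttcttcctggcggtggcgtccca
Mrpl34, chr8:71464806-71464925, plus strand: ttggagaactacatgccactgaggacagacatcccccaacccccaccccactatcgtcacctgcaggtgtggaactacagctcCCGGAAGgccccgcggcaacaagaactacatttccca
Mrpl52, chr14:54426789-54426908, plus strand: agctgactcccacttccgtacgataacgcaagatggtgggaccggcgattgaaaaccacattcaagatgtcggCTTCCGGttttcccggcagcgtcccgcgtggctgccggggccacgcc
Mrps22, chr9:98601680-98601799, minus strand: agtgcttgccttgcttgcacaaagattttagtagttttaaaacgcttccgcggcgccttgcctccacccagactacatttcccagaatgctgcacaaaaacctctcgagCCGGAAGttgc
Mrpl58, chr11:115403632-115403751, plus strand: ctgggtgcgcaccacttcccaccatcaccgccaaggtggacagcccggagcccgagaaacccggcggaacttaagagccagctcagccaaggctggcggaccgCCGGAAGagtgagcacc
The E-box begins 33 bases before the start of Mrpl20 and 43 before that of Mrpl36. Mrpl36, a zinc-binding protein of the large subunit, ranged from 31.9 to 71.3 CPM in pBIC with a median of 52.8, against 34.9, 40.5 and 36.9 CPM in BIC and 19.9, 23.2 and 23.2 CPM in YC, and rose over YC by 1.28 ± 0.24 log2 units (SE, edgeR adjusted p = 0.0037).

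A protein-coding gene on the opposite strand starts between 1000 bases before and 200 bases after the start of 22 of the 77 tested members (28.6%), against 11.8% of the 13357 tested protein-coding genes. Mrpl43 (0.00 log2 units in pBIC over YC) faces Twnk, the mitochondrial DNA helicase gene, which rose by 1.29 log2 units (edgeR adjusted p = 0.0122). Mrps18c (0.54 log2 units, not called) faces Helq, which fell by 1.16 log2 units (edgeR adjusted p = 0.00067). Mrps5 and its partner Zfp661 rose together by 1.39 and 1.41 log2 units, Mrpl44 and Wdfy1 by 1.71 and 1.47, and Mrps12 and Sars2, the mitochondrial seryl-tRNA synthetase gene, by 0.89 and 0.75. The call of Mrps12 was lost without YC 1 or YC 2 (adjusted p up to 0.0926). These pairs were picked after their values were seen. Counting took no account of strand, so reads where paired genes overlap cannot be assigned.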

How the data were processed

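The authors deposited 1 table of raw read counts per gene and library, made with featureCounts 1.5.0 on GENCODE M13 (GRCm38), per the file headers. The recorded command has no option for read pairs, strand or multi-mapping reads, so mates were counted separately and without strand. The submitters' processing notes name FastQC, STAR, edgeR and limma, without versions. Libraries were poly(A) RNA, read as 100-bp pairs on a HiSeq4000.

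The deposited counts of 12 libraries were fitted together with edgeR 4.0.16 in R 4.3.3 (TMM scaling, filterByExpr with a minimum count of 10, robust quasi-likelihood test), and p-values were adjusted by Benjamini-Hochberg over 17754 genes at 0.05. The data did not show that replicate numbers in the labels pair libraries, and this fit used no pairing. SE is the log2 fold change over the square root of F. RPKM used exon lengths of the tables. A count of 3 corresponds to 0.0637 to 0.0906 CPM. Gene names came from GENCODE M21 for 50462 of the 50686 IDs. Named in each comparison were the 8 Mrpl and 6 Mrps genes with the smallest p and the uncalled members with the largest; others named were chosen after their values were seen. Members and lists were chosen with earlier results of these data known. Alternatives were other scalings, DESeq2 1.42.0, no filter, fits of 2 groups, a replicate block, Xist as covariate and leaving out each library. The pipeline was tested on simulated counts. One B-cell marker, and sums that hold it, are not reported here.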

Additional observations from a re-analysis of the deposited data

Results flagged for a closer look

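For 4 of 80 quantities tested in the 6 pBIC libraries, 1 library lay far from the other 5 (Dixon's test). Chance gives about 1 in 20, so the number flagged is about what chance gives. Mrpl37 was at 40.33 CPM in pBIC 6, and the next lowest pBIC library was at 81.46 CPM. Mrps15 was at 51.83 CPM in pBIC 4, with the next lowest at 62.39 CPM. Mrps17 was at 45.32 CPM in pBIC 6, with the next lowest at 59.37 CPM. Mrpl13 was at 210.3 CPM in pBIC 3, with the next highest at 79.24 CPM. The causes were not tested.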

How the results depend on the processing

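No member fell and no called value changed direction under any alternative run. Members that rose in pBIC against YC numbered 28 with Xist as a covariate (1739 of all genes rose) and 23 to 55 when 1 library was left out (871 to 2400 of all genes), against 46 (2103 of all genes) in the fit of all libraries. In pBIC against BIC they numbered 19 without the filter on low counts (1232 of all genes) and 12 to 46 when 1 library was left out (735 to 2277 of all genes), against 38 (1937 of all genes), and the large minus small median was 0.05 with Xist as a covariate. In BIC against YC 1 member rose with DESeq2 (1357 of all genes), 9 in a fit of those libraries alone (2327 of all genes), 2 with Xist as a covariate (580 of all genes), which moved the median to -0.14, and 0 to 3 when 1 library was left out (200 to 868 of all genes). Xist cannot be separated from the group between BIC and YC, so the covariate fit does not settle that comparison. With a replicate block over libraries 1 to 3, 15 members and 651 of all genes rose in pBIC against YC, and 4 members and 1597 of all genes in BIC against YC. In pBIC against BIC the block fit called 0 of 15624 genes, members included. The same libraries without a block, an alternative chosen after seeing the data, gave 35 members (1468 of all genes) for pBIC against YC, 9 (535) for pBIC against BIC and 9 (2327) for BIC against YC. Same-numbered libraries correlated at -0.131 to 0.215 in their deviations from group means. These values do not show that the numbers pair libraries, but so few libraries cannot exclude it. The causes were not tested. Other scalings moved the median of no list by more than 0.03 log2 units.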
